A study of Gallus gallus with 16 samples.

Results

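The comparison described here is that of a long photoperiod with a 12:12 light-dark cycle in the chick pineal gland, both sampled at ZT14, 14 h after the time called lights-on. It rests on 4 of the 16 arrays of the series: long-day pools 1 and 2 against dark control pools 3 and 4, all of paradigm 3, across 12532 genes. All birds were male Rhode Island Red chicks aged 1 week, and each array carried RNA of 1 pool of 5 to 6 glands from different birds of the same treatment. The long day is 17 h of light and 7 h of dark in the sample titles but 15 h of light and 9 h of dark in the series' design text; the controls had 12 h of light and 12 h of dark. With lights on at ZT0, either long light phase reaches past ZT14, whereas the controls were in their night, so the light history of the birds and the light at the moment of sampling cannot be told apart here. Paradigm 2, used below for comparison, has 2 pools of chicks from a 12:12 cycle kept in light between ZT12 and ZT14 (called early-night light) and 2 dark control pools, numbered 1 and 2, also taken at ZT14. Dark pools 1 and 2 and dark pools 3 and 4 carry the same treatment and differ in the labels by paradigm and array number. The remaining arrays, of paradigm 1, hold pools from a 12:12 cycle taken at ZT0, after 2 h of light late in the night or as controls. They enter the test of single genes through the spread it shares over groups.

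The pineal gland of birds is a photoreceptive clock. Its pinealocytes detect light themselves, carry a transcription-translation loop of CLOCK and BMAL1 with their PER and CRY repressors, and make melatonin at night from tryptophan through TPH1, AANAT and ASMT. Night-time cAMP keeps the melatonin pathway active, light shuts it off, and the length of the melatonin signal reports the length of the night to the rest of the animal. The arrays give ratios and not levels: every value below is the deposited log ratio, taken as log2, of a pool to a reference made from all 16 pools. The sources used here do not state which channel is the numerator, so "higher" and "lower" describe that ratio alone, and all signs turn together if the reference was the numerator.

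The 4 arrays spread more widely than the other 12. The SD of the log ratios over genes was 0.856 and 0.792 in the long-day pools and 1.05 and 0.935 in dark pools 3 and 4, against 0.369 to 0.483 in paradigm 2 and 0.237 to 0.538 in paradigm 1. For that reason each array was divided by its SD for the test, while pool values and their differences are printed as deposited. Across genes, the correlation between the long-day pools was 0.578 and that between dark pools 3 and 4 was 0.555, and the 4 correlations of a long-day with a dark pool lay between 0.515 and 0.600. Pools of one treatment were therefore about as alike as pools of both treatments. The SD over genes of the difference between the group means was 0.617. The differences between the pools of 1 group, with SDs of 0.759 for the long day and 0.942 for the dark, would by themselves give 0.605 for a difference of such means. The pools hold different glands, and no repeat of the paradigm is labelled. The p-values measure the spread between pools of 1 treatment over all 6 groups, those of paradigms 1 and 2 included. The tissue could not be checked closely against its markers, since ratios to a pineal reference give no level. Of 16 pinealocyte markers only TPH1, OTX2, NEUROD1 and ISL1, which are 4, were measured.

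No gene passed the test. In the limma fit over all 16 arrays, 0 of 12532 genes (0%) differed between the long day and its dark pools at a Benjamini-Hochberg adjusted p under 0.05, and the smallest adjusted p was 0.693. At an unadjusted p under 0.05 the ratio was higher in the long day for 241 genes (1.92%) and lower for 259 (2.07%), together 3.99% of the genes. Both long-day pools lay above both dark pools for 1946 genes (15.5%) and below both for 1993 (15.9%), on the deposited and the scaled values alike; further on, "lay higher" or "lower in both long-day pools" has this meaning. The group means of 1233 genes differed by more than 1 log unit and those of 118 by more than 2. The difference was larger than both pool-to-pool differences for 2859 genes, or 22.8%. An exact permutation test of 2 pools against 2 cannot give a two-sided p below 0.333, so the limma fit, which shares the spread over genes and groups, is the test used for single genes.

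Without the scaling, the same limma fit called 369 genes (2.94%), 186 higher and 183 lower. That fit takes the spread of these genes largely from the narrower arrays of paradigms 1 and 2. In the scaled fit the other arrays have the wider residual spread, so the shared spread is wider than that of the 4 arrays compared. A scaled limma fit of only these 4 arrays also called 0 genes, with 698 at an unadjusted p under 0.05. When array weights were fitted to the deposited values, 0 genes were called by limma, 853 had an unadjusted p under 0.05, and the smallest adjusted p was 0.185. Leaving out long-day pool 1 gave 6 called genes, leaving out dark pool 3 gave 6 and leaving out dark pool 4 gave 5, and leaving out long-day pool 2 gave 0. The array numbers in the labels fall into runs, in which the long-day pools and dark pool 3 stand together and dark pool 4 stands in another run. The light and control groups of paradigm 1 also each hold pools of different runs. The shared spread therefore holds any difference between those runs. With the run as a block, 9 genes were called. That fit compares the long-day pools with dark pool 3 alone. The named ones were FAIM, an inhibitor of Fas-induced cell death, HSPA13, a chaperone of the HSP70 family, and PSMC3IP, a factor of meiotic recombination. Their scaled differences were 3.39, -5.30 and 3.02, with adjusted p-values of 0.0402, 0.0402 and 0.0425. In the following, values of single genes and gene lists describe these 4 pools, and no gene is counted as changed.

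The 12 named genes with the smallest p and a higher ratio in the long day had no overlap between the groups, with gaps of 0.88 to 2.71 between the nearest pools. The largest gap belonged to TIMD4, a receptor on macrophages for phosphatidylserine on dying cells. Its log ratio was 2.60 and 2.89 in the long-day pools and -1.47 and -0.11 in dark pools 3 and 4. Both long-day pools stood far above every other ZT14 pool, which lay between -0.32 and 0.14 in paradigm 2, and the scaled difference was 4.10 ± 0.82 (SE, adjusted p = 0.693). Other members act at the cell surface. PROCR, the endothelial receptor for protein C, had 1.42 and 1.79 in the long-day pools and 0.07 and -0.03 in the dark pools. MME, the membrane peptidase neprilysin, had 2.24 and 2.48 against 0.28 and 1.08. In both genes the long-day pools lay close together and above all 4 dark pools taken at ZT14. For EDNRA, the type A endothelin receptor, the values were -0.12 and -0.21 in the long day and -1.57 and -2.43 in the dark. Here the dark pools were the ones that lay far from the reference, and the long-day pools lay near it.

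Enzymes and regulators of metabolism followed. CHSY3, a chondroitin sulfate synthase, had log ratios of 3.32 and 2.35 in the long-day pools and -0.38 and 1.11 in the dark pools. ACAD11, an acyl-CoA dehydrogenase of fatty acid oxidation, had 2.24 and 1.90 against 0.20 and 0.68. The long-day pools were the high ones in both. INSIG1, the endoplasmic reticulum protein that holds back SREBP and so sterol synthesis, had -0.15 and 0.76 in the long day and -2.76 and -1.89 in the dark. SLC25A46, a carrier-family protein of the mitochondrial outer membrane, had 1.08 and 0.42 against -0.85 and -2.18. For both, the dark pools were low and the pools of the groups did not overlap. Of the nuclear members, NRDE2, a partner of the nuclear RNA exosome's helicase, had 1.92 and 2.10 in the long-day pools and -0.13 and 0.27 in the dark pools. RBMS1, a binder of single-stranded nucleic acid, had 1.01 and 1.15 against -0.08 and -0.12. These were among the tightest pairs: the long-day pools agreed within 0.2 log units. NUP107, a scaffold protein of the nuclear pore, had 1.10 and 0.48 against -0.90 and -0.41, and both of its probes were higher. MSX1, a homeobox factor downstream of BMP signals, had -0.79 and -0.13 against -2.33 and -3.78. In MSX1 all 4 pools lay below the reference, and the dark pools lay lowest. Scaled differences of these 12 genes had adjusted p-values of 0.693, or 0.802 for EDNRA and MME.

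Among the 12 leading genes with a lower ratio in the long day, the gaps between the groups were 0.69 to 2.05. CCDC113, a protein of motile cilia, had log ratios of -0.20 and -0.15 in the long-day pools and 1.90 and 2.20 in the dark pools. ANO3, a membrane protein of the anoctamin family, had 0.21 and 0.72 against 3.50 and 2.72. The dark pools were high in both genes, while the long-day pools lay near the values of dark pools 1 and 2. TOR4A, a torsin-family ATPase, had -0.71 and -0.60 in the long day and 1.75 and 1.24 in the dark. GPR146, an orphan receptor coupled to G proteins, had -0.08 and -0.90 against 1.40 and 1.15, with both probes lower. ODR4, known in Caenorhabditis elegans for the trafficking of odorant receptors, had -1.91 and -2.05 against 0.20 and -1.13. ODR4 was the reverse of the first 4: its long-day pools lay far below the reference and the dark pools lay nearer.

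RNF5, a membrane-anchored ubiquitin ligase of endoplasmic reticulum quality control, had log ratios of -2.06 and -1.68 in the long-day pools and -0.32 and 4.00 in the dark pools. The 2 dark pools were far apart, so the size of its difference, -3.71, rests on dark pool 4. Without dark pool 3 its scaled difference was -6.54 and it was called in the limma fit (adjusted p = 0.00143). UBTD2, a ubiquitin-domain protein, had -1.87 and -1.25 against -0.03 and 0.20. HMCES, which shields abasic sites in single-stranded DNA, had -2.38 and -1.03 against 1.81 and 0.55. In HMCES the groups lay on opposite sides of the reference, and in UBTD2 only the long-day pools left it. EIF2A, an initiation factor that delivers the initiator tRNA, had -0.74 and -0.32 in the long day and 0.50 and 2.05 in the dark. TAF1A, a subunit of the RNA polymerase I selectivity factor, had -1.07 and -0.10 against 0.59 and 1.54. TOMM22, a receptor of the mitochondrial protein import complex, had -1.31 and -0.73 against 0.68 and 0.56. In these 3 genes all long-day values were negative and all dark values positive. PKIG, an inhibitor of the cAMP-dependent kinase, had -0.49 and -1.34 against 1.61 and 0.44, which is the same arrangement. Adjusted p-values of the 12 genes in the limma fit were 0.693 for 9 of them, 0.707 for PKIG and 0.802 for TAF1A and TOMM22.

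**Figure D1:**
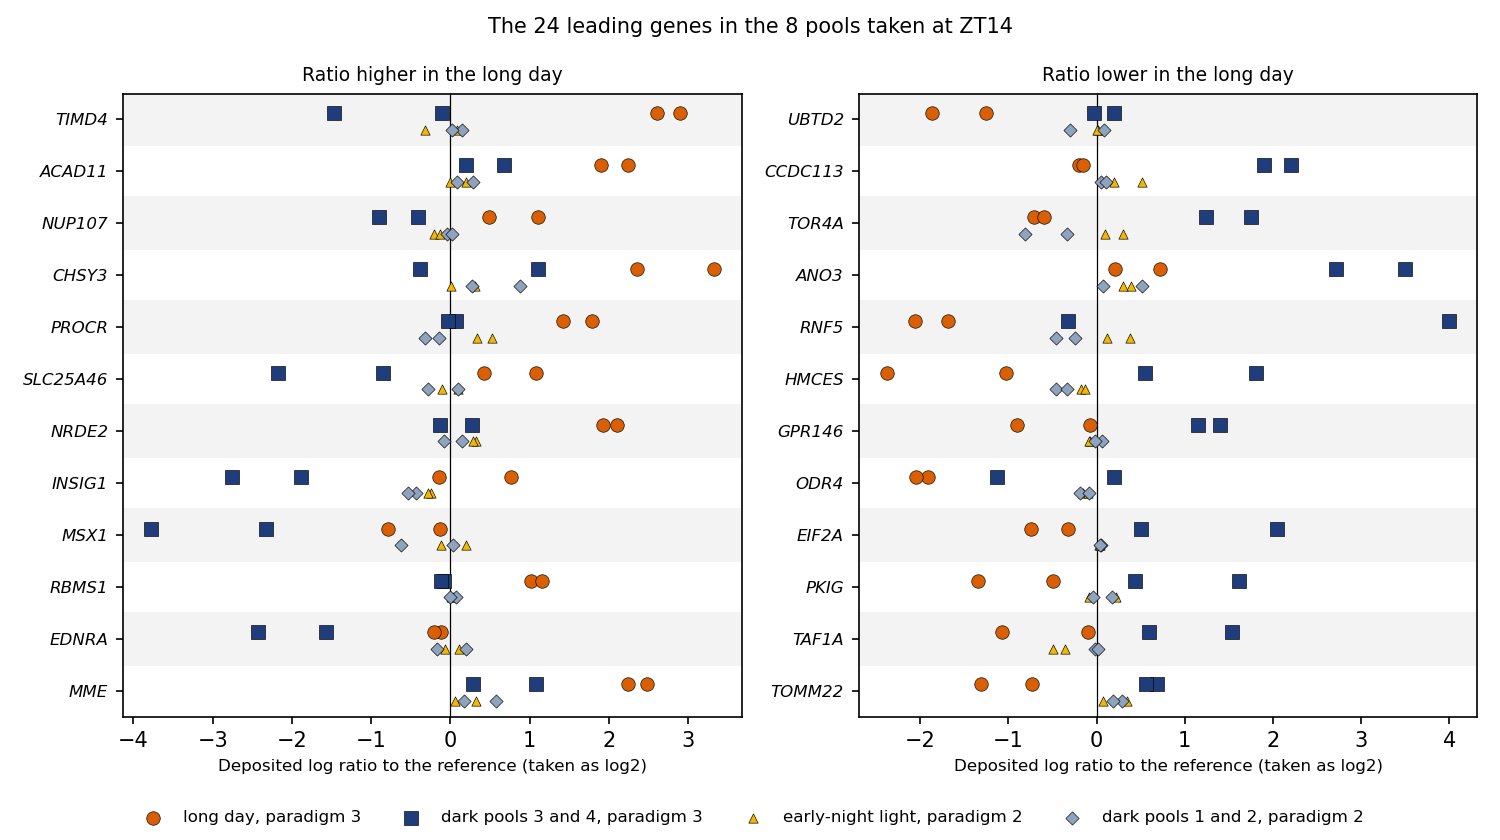
Deposited log ratios (x axes, taken as log2) of the 12 leading genes with a higher ratio in the long day (left) and the 12 with a lower ratio (right). Each row holds 1 gene; circles are the 2 long-day pools and squares the 2 dark pools of paradigm 3, and the small triangles and diamonds are the early-night light and dark pools of paradigm 2. Circles and squares never overlap in a row, as the genes were chosen for that, and the marks of paradigm 2 all lie within 1 log unit of 0.

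Whether the long day or its dark pools stood apart was read against dark pools 1 and 2, which carry the same treatment label as dark pools 3 and 4. Since dark pools 1 and 2 are of paradigm 2, both distances also hold any difference between the paradigms. Of the 12 higher genes, the long-day mean lay farther from dark pools 1 and 2 in 8, and the mean of dark pools 3 and 4 lay farther in SLC25A46, INSIG1, MSX1 and EDNRA, which are 4. Of the 12 lower genes, the long-day mean lay farther in 4 (UBTD2, ODR4, PKIG and TOMM22) and dark pools 3 and 4 in 8. Over all genes tested, the long-day mean was the farther one for 5617, or 44.8%. The extremes were clear. For TIMD4 the long-day mean lay 2.67 above dark pools 1 and 2 and the mean of dark pools 3 and 4 lay 0.87 below them (-0.87). For ANO3 the long-day mean lay 0.17 above and the mean of dark pools 3 and 4 lay 2.81 above. Both long-day pools lay outside all 4 ZT14 dark pools in 10 of the 12 higher and 10 of the 12 lower genes, MSX1, EDNRA, TOR4A and ANO3 being the exceptions. Over all genes the same held for 773 (6.17%) above and 767 (6.12%) below; the leading genes had already been chosen as lying outside 2 of these 4 pools.

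**Figure D2:**
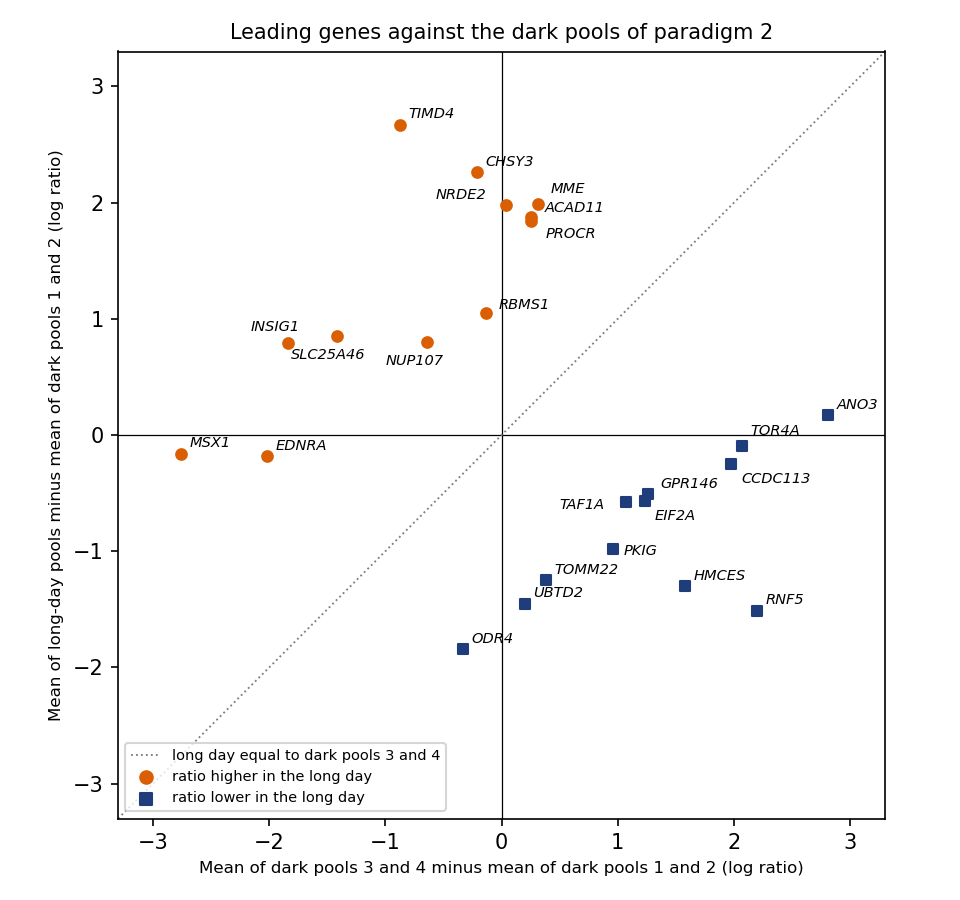
Mean log ratio of dark pools 3 and 4 (x axis) and of the 2 long-day pools (y axis), each minus the mean of dark pools 1 and 2, for the 24 leading genes. Distance from 0 along y is that of the long-day mean from dark pools 1 and 2, and along x that of its own dark controls. Dark pools 1 and 2 are of paradigm 2, so both distances also hold any difference between the paradigms. TIMD4 stands high on y, and ANO3 and MSX1 stand far out on x and near 0 on y. Points on the dotted line would not differ between the groups.

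Dark pools 3 and 4 differed from dark pools 1 and 2 more than they did from the long-day pools. The SD over genes of that difference between dark pools was 0.868 as deposited, against 0.617 for the long day minus dark pools 3 and 4, and after scaling the values were 1.05 and 0.666. Scaling also widened paradigm 2: its dark pools 1 and 2 differed from each other with an SD of 1.19 after scaling and 0.515 before. The pool-to-pool differences by themselves would give 0.537 as deposited and 0.759 after scaling for the pairs of dark pools, and 0.658 after scaling for the long day. In the limma fit 29 genes (0.231%) passed the adjusted threshold between the 2 pairs of dark pools, 16 higher and 13 lower in pools 3 and 4, with a smallest adjusted p of 0.0479. The count was 4 without dark pool 4, 127 without dark pool 1 and 0 when only these arrays were fitted. Among them were QDPR, which regenerates tetrahydrobiopterin, and HELQ, a DNA helicase. TOR4A, described above as a leading lower gene of the long day, was also called between the pairs of dark pools (adjusted p = 0.0479 in limma). Its adjusted p for the long day was 0.693. TOR4A had 1.75 and 1.24 in dark pools 3 and 4 and -0.33 and -0.81 in dark pools 1 and 2. Its long-day pools, at -0.71 and -0.6, lay between dark pools 1 and 2. HELQ had log ratios of 1.96 and 2.10 in dark pools 3 and 4 and -0.13 and -0.29 in dark pools 1 and 2, and the long-day pools, at 1.79 and 1.73, stood with their own controls. USH1C, a scaffold protein of hair cells and photoreceptors, had 2.11 and 1.86 in dark pools 3 and 4, -0.14 and -0.12 in dark pools 1 and 2, and 2.22 and 1.83 in the long day. In HELQ and USH1C the 4 arrays of paradigm 3 stood together whatever the light. MACIR, a regulator of macrophage immunometabolism, was called there on scaled values although its deposited ratios lay between 1.13 and 1.92 in all 4 dark pools. It is described further below. Dark pool 4 shares its run of array numbers with dark pools 1 and 2. Its correlation across genes was 0.555 with dark pool 3, and 0.198 and 0.130 with dark pools 1 and 2. What separates the pairs of dark pools was not tested.

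Of the core clock genes, 8 had a lower and 3 a higher mean in the long day after scaling. Of 29 listed genes 11 were measured, 0 were called, and the median difference was -0.25 as deposited and -0.31 after scaling, against -0.01 and 0.00 for all genes. Both long-day pools lay below both dark pools for 6 of the 11 (54.5%) and above them for 2 (18.2%). The shares over all genes are the 15.9% and 15.5% given above. Against all 4 ZT14 dark pools, only CSNK1D and TEF lay below and only CLOCK and RORA above. The shares of all genes there were 6.12% below and 6.17% above. The scaled median was -0.15, with 5 means higher and 6 lower, without long-day pool 2, and -0.17, with 4 and 7, without dark pool 4. It was -0.44, with 2 and 9, without long-day pool 1. The largest scaled differences were in the repressor CRY1 and the kinase CSNK1D. CRY1 had log ratios of 0.20 and -0.42 in the long-day pools and 1.18 and 3.44 in the dark pools, a scaled difference of -2.55 ± 1.84 (SE). CSNK1D, casein kinase 1 delta, which phosphorylates PER proteins, had -1.52 and -1.56 against 0.33 and -0.11, a scaled difference of -1.97 ± 0.99. In CSNK1D the long-day pools were nearly equal and below all 6 other ZT14 pools. In CRY1 the dark pools spread over more than 2 log units, and dark pools 1 and 2, at -0.41 and -0.03, overlapped the long-day pools.

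The second cryptochrome, CRY2, had 0.04 and 0.45 in the long day and 1.14 and 0.86 in the dark. Its scaled difference of -0.70 ± 0.70 turned to 0.27 when dark pools 1 and 2 joined the controls. PER3, a period repressor, had 1.73 and 0.70 against 1.45 and 1.86, and the groups overlapped. It stood higher in paradigm 2, at 2.65 and 2.55 in the dark and 3.30 and 2.19 after early-night light. CLOCK, the activator, had 0.00 and -0.15 against -0.24 and -0.20, and RORA, a nuclear receptor that drives BMAL1, had 1.17 and 0.96 against 0.48 and 0.90. Those are the 2 members whose long-day pools lay above, both by small gaps. The ubiquitin ligase parts FBXL21 and BTRC and the output factor TEF lay lower in both long-day pools, with differences between the means of -0.25, -0.36 and -0.11. Their gaps were also small, at 0.04, 0.15 and 0.06, and their scaled differences were smaller than their standard errors. FBXL21 and BTRC have 2 probes each, and in both genes 1 probe was higher and 1 lower. CSNK1E, casein kinase 1 epsilon, was far below the reference in paradigm 3, at -1.37 and -2.68 in the long day and -3.39 and -2.32 in the dark, while its values in paradigm 2 lay between -0.03 and 0.14. BHLHE40, a light-inducible repressor, had -0.11 and -0.61 against 0.08 and -0.33. Every adjusted p in the clock list was 1.00.

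Genes of melatonin synthesis and its cofactor were measured for 8 of 21 listed, with 3 (37.5%) lying higher in both long-day pools and 1 (12.5%) lower. The shares over all genes were 15.5% and 15.9%. The median difference of the list was 0.01 as deposited and -0.04 after scaling. TPH1, tryptophan hydroxylase, the first enzyme of the pathway, had log ratios of -0.11 and -0.13 in the long day and -0.32 and -0.28 in the dark. Its groups did not overlap, but the gap was small, and dark pools 1 and 2, at -0.07 and -0.26, stood on either side of the long-day values. Tetrahydrobiopterin, which TPH1 needs, is made by GCH1, PTS and SPR, and GCHFR restrains GCH1. GCHFR had 0.73 and 0.01 in the long-day pools and 2.20 and 2.59 in the dark pools, a scaled difference of -1.99 ± 0.69 (SE). PTS had -0.13 and -1.0 against -2.06 and -1.66, a scaled difference of 1.16 ± 0.52. QDPR had -1.37 and -1.01 against -2.51 and -1.74. In all 3 the dark pools lay farther from dark pools 1 and 2 than the long-day pools did. GCH1, at -1.38 and -0.24 against -0.74 and -1.38, and SPR, at -1.87 and -0.21 against -0.20 and -0.85, overlapped between groups. MAOA, which degrades serotonin, and YWHAZ, which holds AANAT active, also overlapped. AANAT and ASMT were not analysed here.

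Long days are known to act on the thyroid axis in birds through DIO2, which activates thyroid hormone, and DIO3, which destroys it. In the pineal pools DIO2 had 0.46 and 0.21 in the long day and 0.27 and 0.91 in the dark, with overlap. DIO3 had 2.00 and 0.72 against 0.67 and 0.41, so the long-day pools lay above, 1 of them by only 0.05. Dark pools 1 and 2, at 0.71 and 1.07 for DIO3, overlapped the long-day pools. DIO1, the other activating deiodinase, had 0.81 and 0.64 against 1.12 and -0.34. The receptor THRA, at 0.88 and -0.05 against 1.05 and 0.15, and EYA3, a long-day marker of the pars tuberalis, at 0.01 and 0.00 against 0.07 and -0.03, overlapped as well. RARRES1, a gene induced by retinoic acid, showed the largest difference of the list. Its values were -0.40 and -0.90 in the long-day pools and -1.99 and -4.05 in the dark pools, a scaled difference of 2.31 ± 0.73 (adjusted p = 0.934). For RARRES1, dark pools 1 and 2 were at -0.30 and 0.20, closer to the long-day pools than to dark pools 3 and 4. NCOR1, a corepressor of thyroid hormone receptors, had -0.63 and -0.66 against 0.33 and -0.36. PRL, prolactin, had 0.47 and 0.96 against 0.45 and -0.60. Of 30 listed genes 11 were measured, and 3 (27.3%) lay higher and 2 (18.2%) lower in both long-day pools. The shares over all genes were 15.5% and 15.9%. The median difference of the list was -0.11 as deposited. CRYM and THRSP, a binder of thyroid hormone and a target of it, overlapped.

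**Figure D3:**
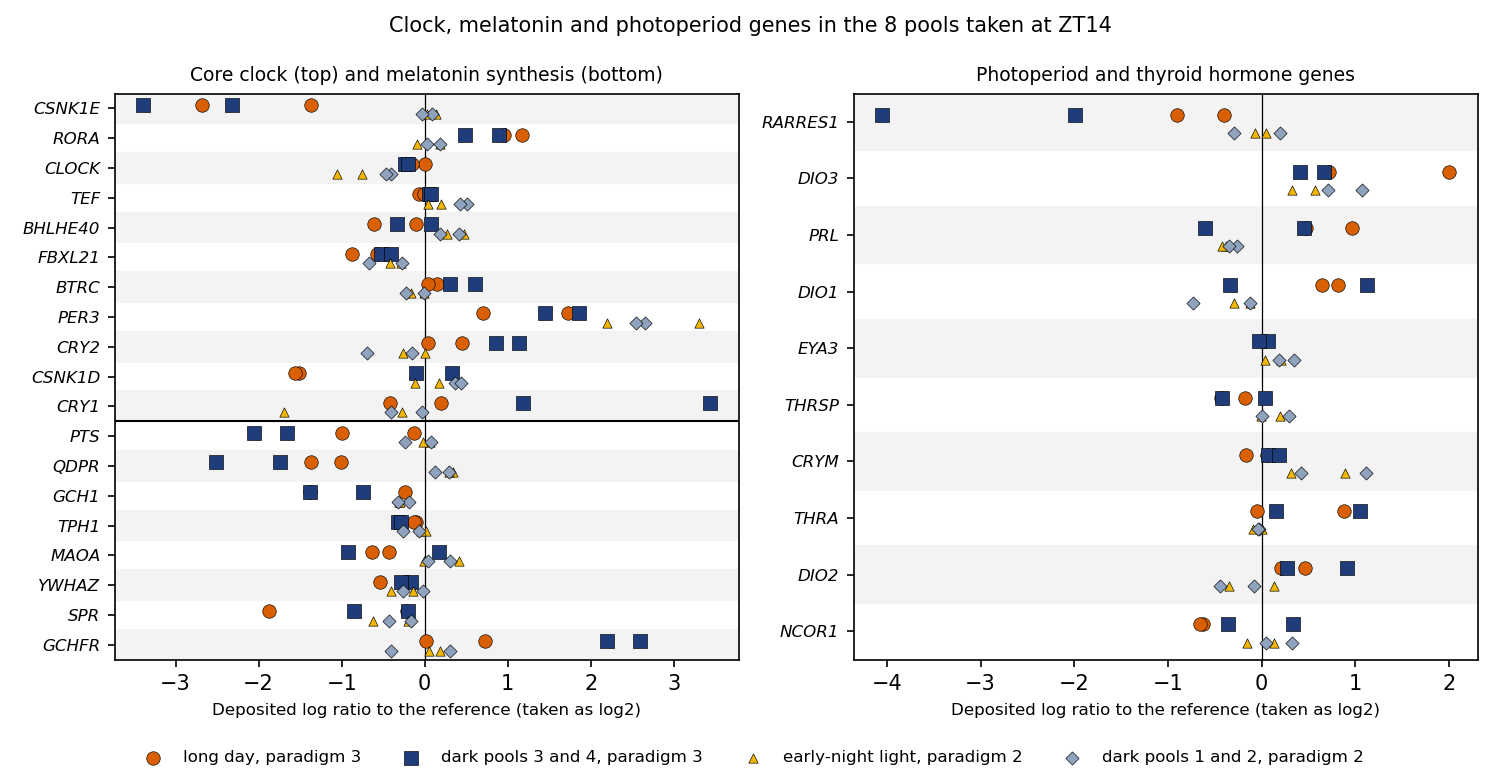
Deposited log ratios (x axes, taken as log2) of the measured core clock and melatonin synthesis genes (left, above and below the line) and of photoperiod and thyroid hormone genes (right) in the 8 ZT14 pools. Marks are as in the plot of leading genes. Long-day circles lie left of the dark squares for 6 of 11 clock genes, with CSNK1D and CRY1 the farthest. The circles lie right of the squares for PTS, QDPR and RARRES1 and, by smaller gaps, for CLOCK, RORA, TPH1, DIO3 and PRL.

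Light detection and second messengers came next, to be read against 15.5% of all genes higher and 15.9% lower. Of 47 genes of phototransduction and the visual cycle 9 were measured. Higher in both long-day pools were 4 (44.4%): RDH5, ABCA4, STRA6 and RLBP1, which handle retinoids. These 4 were named after their values were seen. Their differences were 0.48, 0.27, 0.19 and 0.18 as deposited. Only in ABCA4 did both long-day pools also lie above dark pools 1 and 2. The scaled median of the list was 0.11. With all 4 ZT14 dark pools as controls it was -0.01, with 4 means higher and 5 lower. The scaled differences of ABCA4, STRA6 and RLBP1 were smaller than their standard errors, the 2 probes of RLBP1 had opposite signs, and its value turned to -0.01 with all 4 ZT14 dark pools as controls. RBP4, the retinol carrier, was the 1 lower gene, at -0.95 and -1.58 against -0.51 and -0.75. Of 28 measured genes of cAMP and calcium signalling, 6 (21.4%) lay higher and 4 (14.3%) lower. CACNA1C, the pore of an L-type calcium channel, had 4.42 and 1.19 in the long-day pools and 0.88 and 0.35 in the dark pools. Long-day pool 1 alone was extreme. AKAP9, an anchor of the cAMP-dependent kinase, had -1.68 and -1.13 against -0.81 and 0.05. Of 13 immediate early genes 2 (15.4%) lay higher and 3 (23.1%) lower. The 2 higher ones, named after their values were seen, were BDNF and SIK1. BDNF had 0.67 and 0.35 against -0.38 and -0.39, and SIK1 had 0.04 and 0.39 against -0.59 and -0.62. In both the long-day pools also lay above dark pools 1 and 2. CCN2, a growth factor-induced matrix protein, had 0.32 and -1.25 in the long day and -3.10 and -1.46 in the dark. CCN2 is not counted as higher, since its groups overlapped after scaling. Its difference of 1.82 came with a spread of more than 1.5 within each group.

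In the list of sterol synthesis INSIG1 was the 1 member of 13 (7.69%) that lay higher in both long-day pools, and 5 (38.5%) lay lower. The shares over all genes were 15.5% and 15.9%. The lower members were FDFT1, CYP51A1, LSS, DHCR7 and SQLE, all enzymes of the squalene and cholesterol pathway. FDFT1, squalene synthase, had -1.15 and -0.55 in the long day and 0.68 and -0.15 in the dark. SQLE, squalene epoxidase, had 0.25 and 0.17 against 0.59 and 0.47. In these 2 the long-day pools also lay below dark pools 1 and 2, and in the other 3 they did not. The differences of the 5 enzymes were -0.24 to -1.11, and the median of the list was 0.01 as deposited and -0.01 after scaling. Scaled differences of SQLE and DHCR7 were smaller than their standard errors, and those of LSS and CYP51A1 were about as large as theirs. The 5 enzymes were picked out after their values were seen, and other synthetic enzymes, such as MVK and MSMO1, overlapped with means that differed by 0.15 and 0.05. The scaled median was -0.18 without dark pool 3 and -0.31 without long-day pool 1. Among 19 genes of fatty acid and membrane lipid synthesis, 2 lay higher and 3 lower. SPTLC2, a subunit of serine palmitoyltransferase, had -0.61 and 0.04 against -2.40 and -1.02, and AGPAT3, an acyltransferase of phospholipid synthesis, had 0.79 and 0.70 against -0.19 and -0.35.

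Of 20 antioxidant enzymes measured, 6 (30.0%) lay higher in both long-day pools and 0 lower, against 15.5% and 15.9% of all genes, and the median difference was 0.10 as deposited. The scaled median was 0.04 without dark pool 3, and against all 4 ZT14 dark pools 10 means were higher and 10 lower. TXN, thioredoxin, had log ratios of 1.11 and 1.48 in the long day and -0.23 and -0.40 in the dark. The others were GPX7, MGST3, NQO1, CAT and SOD1, with differences of 0.65, 1.32, 0.57, 0.68 and 0.11, and they were named after their values were seen. The long-day pools of TXN, GPX7 and NQO1 also lay above dark pools 1 and 2, whereas those of MGST3, CAT and SOD1 did not. Of the 3 probes of SOD1, 2 were higher and 1 lower, and its scaled difference turned to -0.04 with all 4 ZT14 dark pools as controls. Oxidative phosphorylation had 9 of 32 members (28.1%) higher in both long-day pools and 2 (6.25%) lower, beside the same 15.5% and 15.9% of all genes. Without dark pool 3 its scaled median went from 0.11, with 23 means higher and 9 lower, to 0.01, with 17 and 15. Its mean log ratio over the list was -0.20 and -0.36 in the long-day pools, -0.66 and -0.45 in dark pools 3 and 4, and -0.07 and -0.17 in dark pools 1 and 2. All 4 pools of paradigm 3 thus lay below those of paradigm 2, the dark pools farthest. COX7A2L, a factor for assembling respiratory supercomplexes, had 0.29 and 0.22 in the long day and -0.63 and -0.20 in the dark. NDUFB2, a subunit of complex I named after its values were seen, had 0.29 and 0.17 against -0.78 and -0.71.

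The lists of protein synthesis and turnover are to be read against the same shares of all genes, 15.5% higher and 15.9% lower. Of 35 cytosolic ribosomal proteins 10 (28.6%) lay higher and 3 lower in both long-day pools, and of 48 genes of the proteasome and ubiquitin conjugation 16 (33.3%) lay higher and 6 lower. RPL8, of the large ribosomal subunit, had -0.31 and -0.10 against -0.92 and -1.37. The ubiquitin-conjugating enzymes UBE2K and UBE2R2 lay low in the dark pools, at -2.60 and -2.92 and at -3.84 and -2.32. Their long-day values were 0.04 and -1.09 for UBE2K and -0.92 and -0.93 for UBE2R2. CUL2, a scaffold of ubiquitin ligases, went the other way, with -1.22 and -1.52 against -0.68 and 0.04. The medians over these lists were 0.07 and 0.13 as deposited, and the scaled median of the ribosomal proteins ran from 0.02 without dark pool 3 to 0.19 without dark pool 4. The scaled median of the proteasome and ubiquitin list was 0.11. Against all 4 ZT14 dark pools it was 0.02, with 26 means higher and 22 lower. The mean log ratio of that list was -0.19 and -0.28 in the long-day pools and -0.41 and -0.38 in dark pools 3 and 4. In dark pools 1 and 2 it was 0.04 and 0.02. For folding in the endoplasmic reticulum, 10 of 35 lay higher and 7 lower. Of the heat shock proteins 2 of 23 lay higher and 7 (30.4%) lower, with a median of -0.13 as deposited and -0.17 after scaling. The scaled median ran from -0.04 without long-day pool 2 to -0.27 without dark pool 4. DNAJB6, a co-chaperone against aggregation, had -1.62 and -1.42 in the long-day pools and -0.69 and 0.96 in the dark pools. DNAJB4, of the same family, lay the other way, at 2.58 and 2.13 against 1.20 and 1.75. SEL1L, the adaptor of the HRD1 ubiquitin ligase, had -0.19 and 0.11 against 0.58 and 2.51, and all 3 of its probes were lower. Of 22 genes of glucose use 1 lay higher and 3 lower, and PGAM1, a glycolytic mutase, overlapped at -1.78 and -0.69 against 1.51 and -1.04.

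Genes of growth and patterning were mixed, and are to be read against 15.5% of all genes higher and 15.9% lower. In the list of cell division and DNA replication 13 of 51 (25.5%) lay higher and 8 (15.7%) lower, with a median of 0.14 as deposited. The scaled median of 0.17 was 0.04 without long-day pool 1 and 0.05 without dark pool 4. ORC6, of the origin recognition complex, had -0.54 and -1.20 in the long day and -2.96 and -2.38 in the dark. RFC3, of the clamp loader, had -1.07 and 0.06 against 4.97 and 0.97. The high value of RFC3 came from dark pool 3 alone. NUSAP1, a spindle protein, had -0.47 and -0.39 against 0.81 and 0.29, and its 5 probes were all lower. In BMP and TGF-beta signalling 5 of 23 (21.7%) lay higher and 1 (4.35%) lower. BMP6, a secreted ligand of that family, had 0.50 and -0.19 in the long-day pools and -2.11 and -0.96 in the dark pools. Among homeobox factors 5 of 20 lay higher and 2 lower, MSX1 and HOPX leading, and HOPX had -0.21 and 0.87 against -0.39 and -1.46. In Wnt signalling 3 of 23 (13.0%) lay higher and 3 (13.0%) lower. WNT11, a ligand of the planar polarity branch, had -1.08 and 0.72 in the long day and 1.69 and 2.77 in the dark, with no overlap. For ORC6, RFC3, NUSAP1, BMP6, HOPX and WNT11, dark pools 3 and 4 lay farther from dark pools 1 and 2 than the long day. In none of these did both long-day pools lie outside all 4 ZT14 dark pools on deposited and scaled values alike. The scaled median of the homeobox list went from 0.19 to 0.05 without dark pool 3, and that of the Wnt list from 0.10 to -0.07. Against all 4 ZT14 dark pools the homeobox median was 0.03, with 10 means higher and 10 lower. It was then 0.11 for cell division, 0.26 for BMP and TGF-beta and 0.34 for Wnt.

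**Figure D4:**
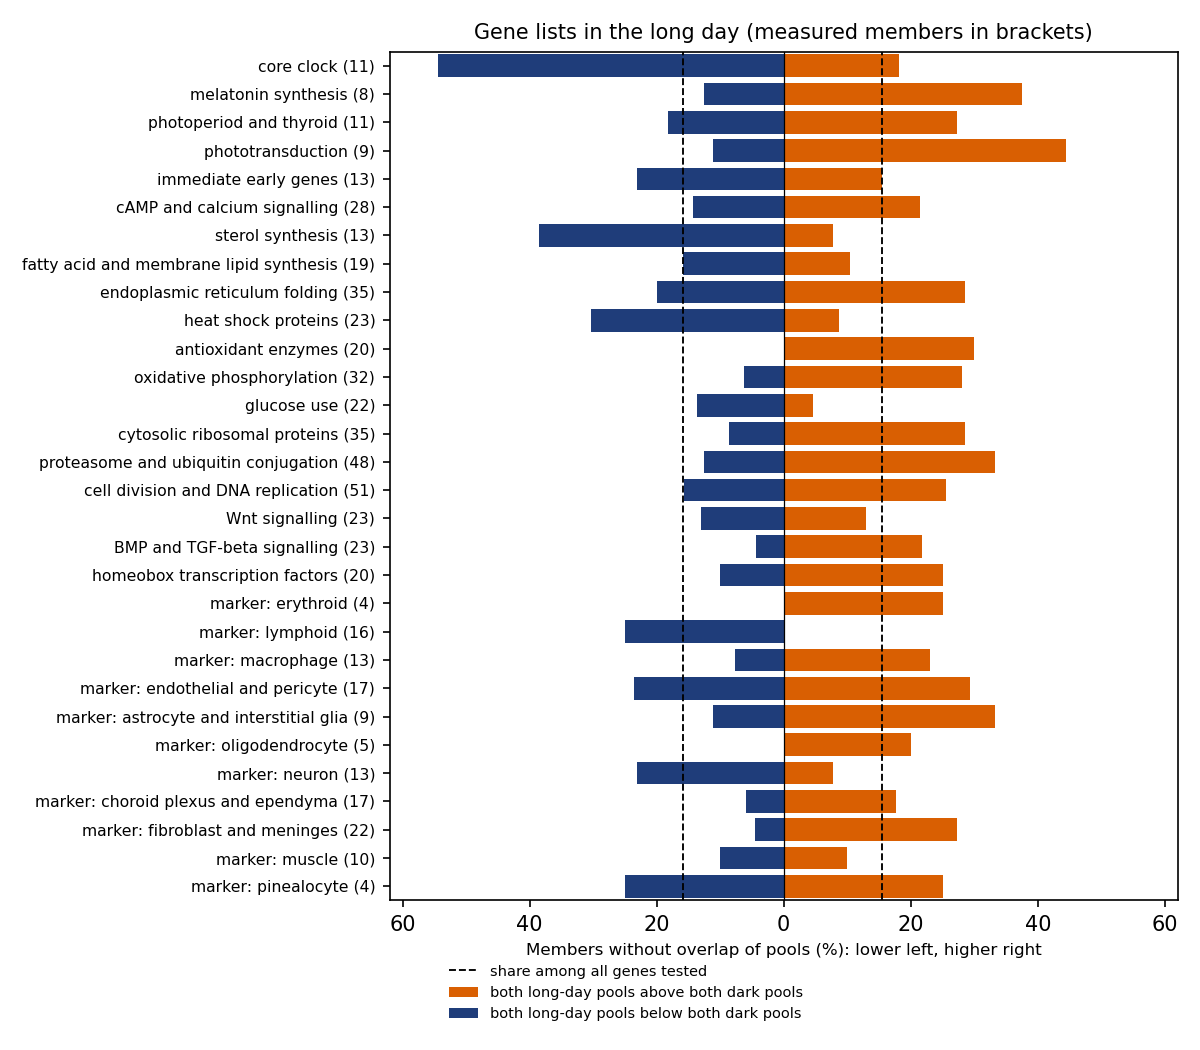
Share of the measured members of each list whose long-day pools both lay above (bars to the right) or both below (bars to the left) dark pools 3 and 4, in percent on the x axis; the number measured is in brackets. Dashed lines give the shares among all 12532 genes, 15.5% and 15.9%; the core clock bar to the left reaches 54.5% of 11 genes and that of sterol synthesis 38.5% of 13, and lists of few genes move in large steps.

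Whole glands hold more than pinealocytes, and in RNA from pooled tissue fewer cells of a type and less RNA per cell cannot be told apart. NEUROD1, a transcription factor of pinealocytes, had log ratios of -1.84 and -1.73 in the long-day pools and -0.85 and 0.60 in the dark pools, a scaled difference of -2.09 ± 0.70 (SE, adjusted p = 0.987). OTX2, at -0.37 and -0.40 against -0.48 and -0.51, and ISL1, at -0.48 and -0.96 against -1.22 and -0.51, differed little. The 4 pinealocyte markers did not move as 1. NEUROD1 lay lower in both long-day pools, while TPH1, OTX2 and ISL1 kept less than 0.2 between the means. TPH1 lay higher in both long-day pools, but its scaled difference was 0.16 ± 0.94. Macrophage markers, the list of TIMD4, averaged 0.00 and 0.14 in the long day and -0.30 and -0.10 in the dark over 13 genes. TIMD4 itself is part of that average. After scaling, 6 means were higher and 7 lower, with a median difference of -0.01. In both long-day pools 3 (23.1%) lay higher and 1 (7.69%) lower, against 15.5% and 15.9% of all genes. Endothelial and pericyte markers, the list of PROCR, averaged 0.16 and 0.22 against -0.02 and 0.01 over 17 genes, with 5 (29.4%) higher and 4 (23.5%) lower. KDR, a receptor for vascular endothelial growth factor, had 0.52 and -0.15 against -3.37 and -0.98, and the pericyte gene RGS5 had -0.34 and 0.04 against 1.64 and 1.35. So within that list PROCR and KDR lay higher in the long day and RGS5 lay lower.

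Markers of the choroid plexus and ependyma, the list of CCDC113, averaged -0.09 and -0.30 in the long day and -0.33 and -0.22 in the dark over 17 genes. CCDC113 lay lower there, but CFAP20, another cilia gene, lay higher, with -2.05 and -1.23 against -3.96 and -3.24. The counts that follow are of short lists, to be read against 15.5% of all genes higher and 15.9% lower. Fibroblast and meninges markers averaged 0.26 and 0.33 against 0.12 and 0.12 over 22 genes, with 6 higher and 1 lower. LUM, a proteoglycan of connective tissue, led at 0.67 and 0.55 against -0.76 and -0.39, but dark pool 2 stood at 0.80. Against all 4 ZT14 dark pools 12 means of this list were higher and 10 lower. Lymphoid markers had 0 of 16 higher and 4 lower, and CXCR4, a chemokine receptor, overlapped. Neuron markers had 1 of 13 higher and 3 lower. SYN2, a synaptic vesicle protein, had -1.03 and -1.96 in the long-day pools and -0.05 and -0.43 in the dark pools. Astrocyte markers had 3 of 9 higher and 1 lower, with SOX9 at -0.83 and -0.15 against -1.50 and -1.08. The scaled median of the astrocyte list was -0.03 against all 4 ZT14 dark pools, with 4 means higher and 5 lower. Of 5 oligodendrocyte markers MAL, a myelin protein, lay higher, at 1.84 and 1.20 against 0.35 and 0.27. Muscle markers had 1 of 10 higher and 1 lower, and MB, myoglobin, had -1.29 and 0.11 against 1.21 and 1.74. Of 4 erythroid markers 1 lay higher, and TFRC, the transferrin receptor, overlapped at 0.87 and 2.07 against 0.48 and 1.22. Markers of other cell types moved with these results only as far as these values show, and their part in them was not tested.

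Early-night light offers a second contrast of light against dark at ZT14, with control pools of its own. The interaction of both contrasts in the limma fit called 0 of 12532 genes (0%), with 594 at an unadjusted p under 0.05 and a smallest adjusted p of 0.824. Without 1 pool the count was 0 to 11, the highest without early-night light pool 2. Across genes the differences of the long day and of early-night light had a correlation of 0.0213. Of the 241 genes with an unadjusted p under 0.05 and a higher ratio in the long day, 121 (50.2%) were also higher after early-night light, against 50.1% of all genes. Of the 259 lower ones 126 (48.6%) were also lower, against 49.9%. The leading genes did no better, with the same sign in 6 of the 12 higher and 4 of the 12 lower. Early-night light itself gave 6 called genes (0.0479%) in the same scaled fit. TXN and MACIR, among these, also passed an unadjusted 0.05 for the long day, with the same sign. Both are described below for that reason, so light pools on 1 side of their own dark pools were largely built in by the choice. The share of all genes with such an order in both paradigms was not counted.

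TXN had log ratios of 0.50 and 0.31 after early-night light and -1.36 and -2.05 in dark pools 1 and 2, a difference of 2.11 (adjusted p = 0.0385 in limma), beside 1.61 for the long day. All 4 pools of the light groups lay above all 4 dark pools. MACIR had 0.30 and 0.15 after early-night light and 1.68 and 1.83 in its dark pools, a difference of -1.53 (adjusted p = 0.0139). In the long day it had 0.18 and 0.30 against 1.92 and 1.13, a difference of -1.29 with an adjusted p of 1.00. The 4 pools of the light groups thus lay between 0.15 and 0.30 and the 4 dark pools between 1.13 and 1.92. In the deposited values these differences were of similar size in both paradigms, unlike the overall spread of the arrays. Dividing by the array's SD therefore made the long-day difference of MACIR smaller in relation to that of early-night light. The interaction was not called for either gene, with adjusted p-values of 0.955 for TXN and 0.884 for MACIR.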

How the data were processed

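Per the labels, every array carried amplified RNA of 1 pool in the Cy3-type dye beside the reference in the Cy5-type dye, and dyes were not swapped. The log2 values used are the log ratios of the 2 channels as deposited by the authors; the sources used here give neither the background correction nor the normalization. The base is not stated and was taken as 2, since the largest size, 10.1, corresponds to a 1061-fold ratio in base 2 and a 23190-fold ratio in natural logs. Without intensities in the files, signal over background could not be judged, and precision depends on the number of arrays.

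Of 15769 probes, 160 control spots (5 names on 32 spots each) were left out. Of the 15609 kept, 9628 had a symbol in the platform annotation and 5981 kept their probe names; probes of 1 symbol were averaged, and probes can disagree. Of 9629 annotated probes 9486 had a gene ID in the reference gene table. Genes needed a value on 2 arrays of each of the 6 groups, which removed 159 and left 12532, 6660 with a symbol.

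Each array was divided by its SD over genes. A model with 1 mean per group was fitted over all 16 arrays in R 4.3.3 with limma 3.58.1 (lmFit, contrasts.fit, eBayes; prior of 3.88 degrees of freedom), with Benjamini-Hochberg adjustment over all genes and a threshold of 0.05. The spread is thus that of all groups. After scaling, the residual SD was 0.649 in the long-day pools and 0.667 in dark pools 3 and 4, against 0.808 to 0.923 in the other arrays. Errors with ± are standard errors of the scaled difference. Scripts were tested on simulated data.

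Named genes are the 12 with the smallest p in each direction among symbols whose groups did not overlap, all measured clock, melatonin, photoperiod and pinealocyte genes, up to 3 members of each other list with an unadjusted p under 0.05 or else the first, and up to 5 genes each way called between the dark pools. The comparison, the gene lists and the rule were chosen with earlier results of these data known, and some genes, named as such, after their values were seen. Alternatives were the deposited values, scaling by the median absolute deviation, quantile normalization, array weights, another prior, only the arrays compared, the run of array numbers as a block, all 4 ZT14 dark pools as controls, complete genes, single probes, and leaving out each pool.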

Additional observations from a re-analysis of the deposited data

How the results depend on the processing

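No paired analysis was possible because the long-day pools are numbered 1 and 2 and their dark pools 3 and 4, so the groups share no replicate numbers. The count of 0 called genes for the long day became 369 on deposited values and 9 with the run of array numbers as a block, and 0 to 6 when 1 pool was left out; it was 0 under the other alternatives. For the interaction the count of 0 became 3 on deposited values and 4 when all 4 ZT14 dark pools served as controls, and 0 to 11 without 1 pool. The 29 genes between the pairs of dark pools became 2583 on deposited values, 771 with array weights, 52 with scaling by the median absolute deviation, 47 for single probes, 18 after quantile normalization, 14 with a trended robust prior and 0 with only the arrays compared, and 4 to 127 without 1 pool (4 without dark pool 4, 127 without dark pool 1). The fit of the deposited values takes the spread largely from narrower arrays. The cause of these changes in the counts was not tested.

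Scaled differences changed sign against all 4 ZT14 dark pools for C5orf15 (-0.50), CFAP20 (-0.06), CRY2 (0.27), CSNK1E (-1.11), CXCR4 (-0.37), DIO2 (0.37), GCH1 (-0.12), IPO5 (-0.51), LCT (0.70), QDPR (-0.61), RLBP1 (-0.01), SOD1 (-0.04) and THRA (0.23). With the run as a block they did so for CXCR4 (-0.06), DIO1 (-0.20), DIO2 (0.14), GCH1 (-0.25), ISL1 (0.28), MAOA (0.24), OTX2 (-0.01), PER3 (0.07) and THRSP (0.03). EYA3 turned to 0.01 after quantile normalization and 0.13 for single probes. HELQ turned to -0.27 and ISL1 to 0.15 on deposited values, with array weights or without. Without 1 pool, differences ran across 0 for BHLHE40 (-0.63 to 0.01), CSNK1E (-0.53 to 1.26), CXCR4 (-0.06 to 1.02), DIO1 (-0.20 to 1.24), DIO2 (-0.57 to 0.14), EYA3 (-0.06 to 0.04), GCH1 (-0.52 to 0.80), HELQ (-0.12 to 0.27), ISL1 (-0.35 to 0.29), MAOA (-0.82 to 0.24), OTX2 (-0.01 to 0.08), PER3 (-0.80 to 0.34), SPR (-1.63 to 0.28), THRA (-0.64 to 0.44) and THRSP (-0.40 to 0.03). Of the 123 named genes 51 passed the threshold on deposited values, against 2.94% of all genes. Many named genes were chosen for a small p in this same contrast or after their values were seen. A high share among them was thus built in by the choice. With 2 pools a side, the precision is set by the number of arrays.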

Other observations

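Several genes were represented by more than 1 probe, which gives a second reading of the same pools. Among 1888 such genes the probes all had differences of 1 sign in 792, or 41.9%. Among the 554 whose averaged pools did not overlap, that was so in 354, or 63.9%; the average is made of the same probes. Of 571 genes with 3 or more probes, 7 (1.23%) had every probe without overlap between the groups and in 1 direction, and they are named here after their values were seen. SEL1L, ATF1, TCF20 and HSPD1 lay lower in the long day and RBM3, NDUFB5 and NAP1L1 higher. ATF1, a transcription factor of the CREB family that answers to cAMP, had log ratios of 0.16 and 0.36 in the long-day pools and 1.07 and 1.20 in the dark pools, and 0.88 and 0.71 in dark pools 1 and 2, so both long-day pools lay below all 4 dark pools. RBM3, a cold-inducible RNA-binding protein whose level follows body temperature rhythms in mice, had 0.04 and 0.01 in the long day and -0.50 and -0.75 in the dark. Dark pools 1 and 2, at -0.05 and -0.12, lay near the long-day values. NAP1L1, a histone chaperone with 4 probes, had a difference of 0.22, and HSPD1, the mitochondrial chaperonin, one of -0.13. Their adjusted p-values in limma were 1.00 for all 7.

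Of the 500 genes with an unadjusted p under 0.05 for the long day, 30 (6.00%) also had one after early-night light, against 6.78% of all genes, so this overlap is no larger than the share of all genes. Of the 30, 18 had 1 sign in both contrasts, and the 10 with a symbol are given as values only, chosen after these were seen. PROCR, ARSH, TXN, CPSF7 and PKD1 were higher in the light group of both paradigms, and TAF1A, MACIR, CHST15, UST and RGS5 were lower. CHST15 and UST both put sulfate on chondroitin or dermatan sulfate chains. UST had 0.68 and 1.08 in the long day and 1.73 and 2.33 in its dark pools, and -0.12 and -0.33 after early-night light against 0.28 and 0.30. CHST15 had 0.29 and -0.54 against 1.81 and 0.40, and -0.27 and -0.48 against -0.01 and 0.14. In both genes each light group lay below its own dark pools. Compared with dark pools 1 and 2, the long-day pools of UST lay above and those of CHST15 lay on either side. ARSH, a sulfatase, had 1.12 and 0.71 against -0.25 and -0.59 in the long day, and 0.19 and 0.26 against 0.02 and -0.51 after early-night light. Adjusted p-values of the 10 genes for the long day were 0.693 to 1.00.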
